A study of Homo sapiens with 14 samples.

Results

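The replication-dependent histone genes are the genes that supply the 4 core histones and the linker histone H1 during DNA synthesis. They were chosen by symbol alone, as the protein-coding genes named H1-1 to H1-5 or H2AC, H2BC, H3C or H4C with a number. No measured value entered this rule, but earlier results of these data were known when the genes were chosen. Of the 60683 gene identifiers in the count tables, 66 matched: 5 H1, 15 H2A, 18 H2B, 13 H3 and 15 H4 genes, with 54 on chromosome 6, 11 on chromosome 1 and 1 on chromosome 12. The symbols H2AC18 and H2AC19 also fit the naming and were not analysed here.

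The study asked how blocking cyclin-dependent kinases, alone or together with indisulam, changes cancer cells that stop dividing. A549, a lung cancer line, was left untreated, or given 2 µM palbociclib (a CDK4/6 inhibitor), 0.5 µM indisulam (a sulfonamide that brings the splicing factor RBM39 to a ubiquitin ligase) or both drugs for 10 days, or 0.5 µM PF-06873600 (which blocks CDK4 and CDK6 and also CDK2) for 7 days. SUM159, a triple negative breast cancer line, was left untreated or given 0.5 µM PF-06873600 for 7 days. Each of the 7 groups holds 2 libraries that the series calls technical duplicates, 14 in all, so every p-value below measures the spread between these libraries, which may be technical.

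A dividing cell must double its histones within S phase, and the replication-dependent genes are switched on for that time. Unlike nearly all other messenger RNAs, their transcripts have no introns and no poly(A) tail. They end just after a short stem-loop, which the stem-loop binding protein SLBP holds for cleavage, export and translation, and they are degraded when DNA synthesis stops. Some of the genes can also give a longer transcript that runs past the stem-loop to an ordinary polyadenylation signal, and cells that leave the cycle are known to carry such forms. The libraries were made from RNA bound to oligo-dT, which is selected by its poly(A) tail. The counts below therefore report the polyadenylated transcripts of these genes and whatever tail-less transcripts were carried over, and these cannot be told apart in counts per gene. In bulk RNA, fewer expressing cells and less RNA per cell cannot be told apart either.

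Total counts on genes ran from 13060374 to 21149256 per library, so the floor of 3 counts lay between 0.142 and 0.23 CPM (counts scaled to 1e6 counts on genes). The line markers stood as labelled: the epithelial keratin KRT8 was at 2126 CPM in untreated A549 and 417 in untreated SUM159, the A549 gene ALDH1A1 at 3977 and 1.41, and the mesenchymal gene VIM at 665 and 4162, and the hormone receptor genes ESR1 and PGR were at 0.182 and 0 CPM in untreated SUM159. The proliferation marker MKI67 fell in every treated group, from 177 CPM to 115 with palbociclib, 143 with indisulam, 29.6 with both drugs and 90.1 with PF-06873600 in A549, and from 561 ± 125 (SD, n = 2) to 138 CPM in SUM159.

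All 66 genes hold a stem-loop of 16 bases, 22 to 62 bases after the stop codon (median 35). Its loop is TTTC in 50 genes, and the other 16 genes differ from it at 1 or both of the loop's variable bases. The sequences below are the stem-loops of the 6 genes with the highest counts in treated SUM159 cells, followed by 2 that fell or stayed low there (H1-4 and H2AC20), so that the 3′ ends of genes with opposite behaviour can be compared. Each is from hg38 on the gene's own strand, with 5 bases on either side in lower case and the stem-loop in capitals.

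H2AC6, chr6:26124664-26124689, plus strand: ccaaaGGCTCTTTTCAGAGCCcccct

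H1-2, chr6:26055739-26055764, minus strand: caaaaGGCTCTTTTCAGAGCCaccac

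H2BC21, chr1:149886183-149886208, minus strand: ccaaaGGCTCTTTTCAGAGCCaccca

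H2BC12, chr6:27146361-27146386, minus strand: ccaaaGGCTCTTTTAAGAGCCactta

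H2BC5, chr6:26158582-26158607, plus strand: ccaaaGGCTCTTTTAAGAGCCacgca

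H4C8, chr6:26285126-26285151, minus strand: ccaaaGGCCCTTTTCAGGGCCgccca

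H1-4, chr6:26157090-26157115, plus strand: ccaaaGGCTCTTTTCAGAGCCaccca

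H2AC20, chr1:149887386-149887411, plus strand: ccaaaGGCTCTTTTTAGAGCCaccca

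H2AC6, H1-2, H2BC21 and H1-4 share the same 16 bases. Genes that rose in SUM159 and H1-4, which fell, thus hold the same stem-loop.

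The summed level of the 66 genes moved in opposite directions under different drugs. In A549 it was 83.7 and 87.8 CPM in the untreated libraries, 63.8 and 59.2 with palbociclib, 80.9 and 80.8 with indisulam, 132.0 and 132.7 with both drugs and 176.8 and 175.6 with PF-06873600. In SUM159 it was 48.2 and 47.9 CPM untreated and 296.4 and 300.9 with PF-06873600. Relative to untreated cells of the same line, the mean was 0.717 times as high with palbociclib, 0.942 times with indisulam, 1.54 times with both, 2.05 times with PF-06873600 in A549 and 6.22 times with it in SUM159. Without H2AC6 the fold with indisulam was 1.08, on the other side of 1. Palbociclib alone lay below untreated A549 and the combination and PF-06873600 lay above it, with no overlap between libraries. These sums are descriptions, since the smallest two-sided p of an exact permutation test with 2 libraries a group is 0.33.

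**Figure D1:**
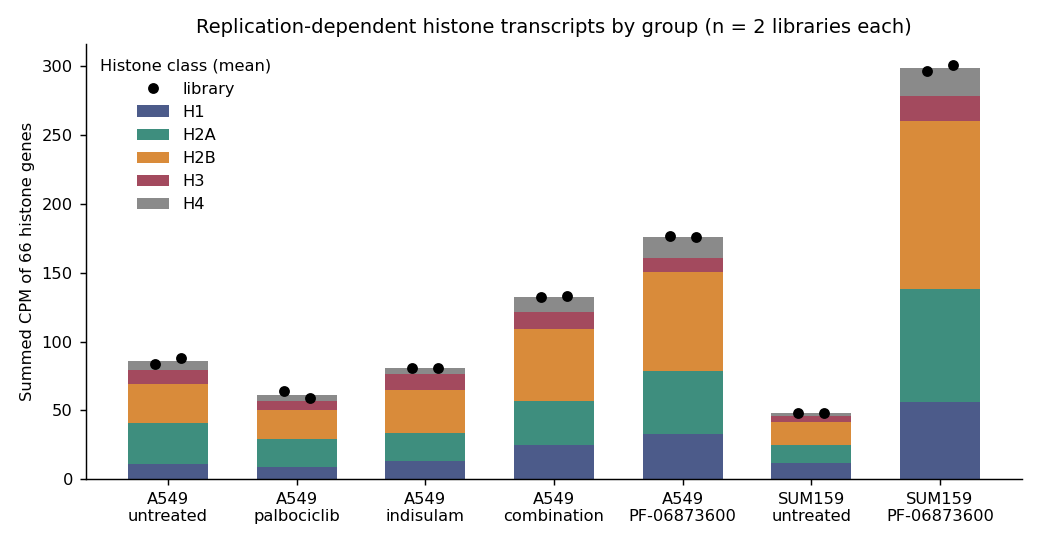
Summed CPM of the 66 replication-dependent histone genes in each of the 7 groups, with bars stacked by the mean of each histone class and points for the 2 libraries. The 2 SUM159 libraries with PF-06873600 stand at 296.4 and 300.9 CPM against 48.2 and 47.9 in untreated SUM159.

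The classes did not contribute alike. H2B genes held 17.2 ± 1.24 CPM (SD, n = 2) in untreated SUM159 and 122 ± 0.402 CPM after PF-06873600, H2A genes 12.8 ± 0.528 and 81.8 ± 0.936, H1 genes 11.9 ± 0.361 and 56.2 ± 2.03, H3 genes 3.91 ± 0.582 and 18.1 ± 0.3, and H4 genes 2.31 ± 0.627 and 20.2 ± 0.864. In A549, H3 genes stood at 10.4 ± 2.28 CPM untreated and 10.2 ± 0.999 with PF-06873600, while H2B genes stood at 27.7 ± 3.43 and 71.7 ± 2.09. The H3 sum is the only class sum of A549 whose libraries overlapped between these groups.

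Few of the genes carried the counts. A group mean of 1 CPM or more was reached by 22 of the 66, 9 were never counted in any library, and the highest group mean of the other 35 ran up to 0.87 CPM. The 44 genes under 1 CPM together held 6.2 ± 1.6 CPM in untreated SUM159 and 5.87 ± 0.121 with PF-06873600, and 3.77 ± 0.424 and 2.93 ± 1.01 in A549. Their sum thus did not follow that of the 22 genes above 1 CPM, which were picked by their highest group and so had room to differ. The 8 highest genes of each library held 64.1 to 86.7% of its summed level.

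Per kilobase of annotated exon, the linker histone gene H1-2 had the highest level in SUM159 with PF-06873600 at 76.2 CPM per kb, followed by H2BC12 at 58.7, H2AC6 at 36.9, H2BC5 at 23.5 and H2BC21 at 15.3. The same 4 genes led in untreated A549, where H1-2, H2AC6 and H2BC12 were at 14.8, 14.4 and 14.3 CPM per kb and H2BC5 at 10.4. The first 3 of these in untreated A549 did not differ beyond the spread of their libraries. In untreated SUM159 the order was H1-2 at 14.1, H2BC12 at 9.71, H2BC5 at 3.46, H2AC11 at 3.36 and H2AC6 at 3.24. These orders depend on the annotated exon length, which was 495 bases for H2BC12, 731 for H1-2, 1668 for H2AC6 and 2224 for H2BC21. Which of the annotated forms was counted is not known. In CPM, H2AC6 was above H1-2 in treated SUM159, at 61.6 and 55.7.

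**Figure D2:**
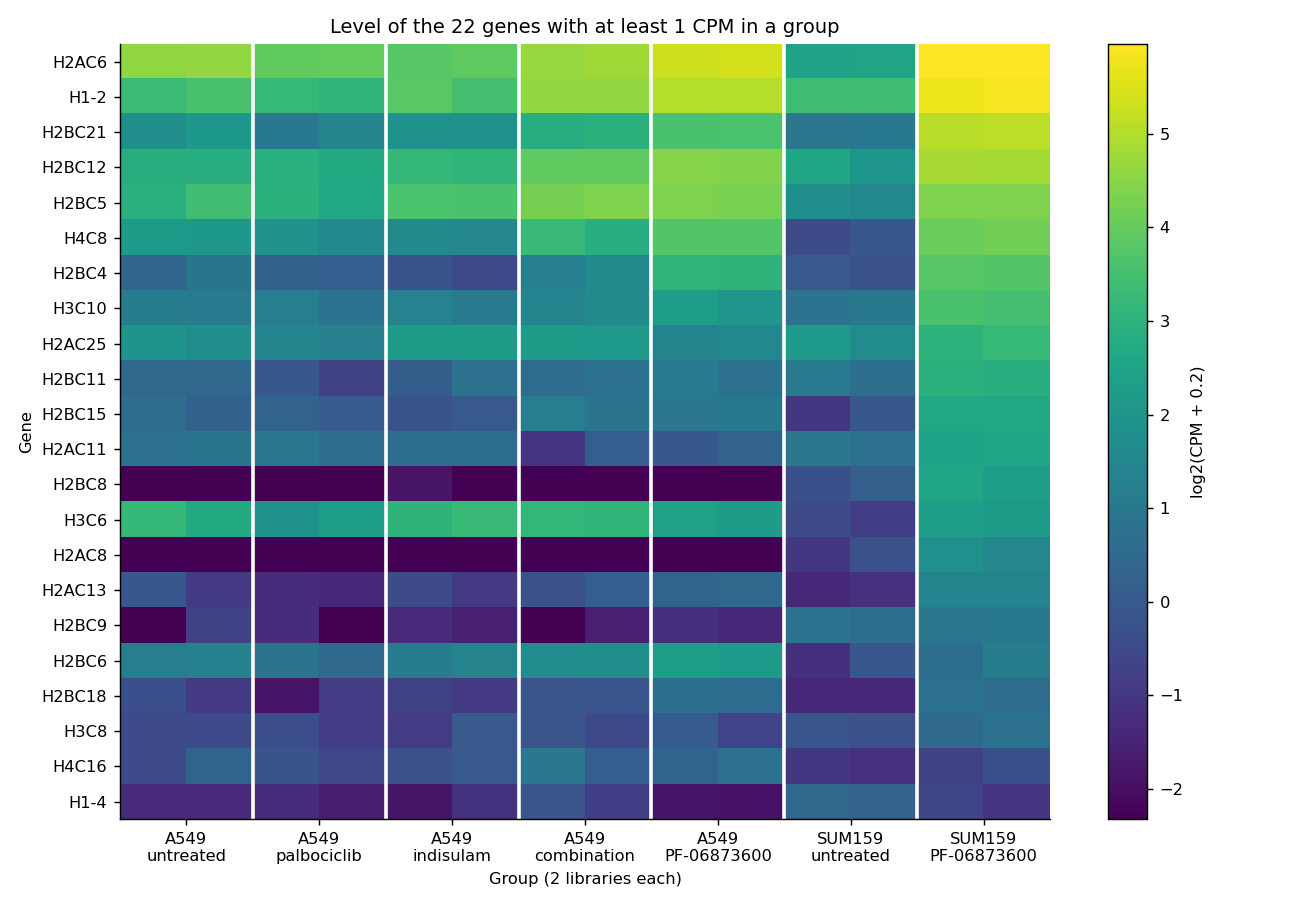
Level of the 22 genes whose mean reached 1 CPM in a group, as log2(CPM + 0.2) in each of the 14 libraries, ordered by their mean in SUM159 with PF-06873600. H2BC8 and H2AC8 are dark in the A549 libraries and bright in SUM159 with PF-06873600, at 5.25 and 3.02 CPM.

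PF-06873600 raised most of the countable histone genes of SUM159. Of the 23 genes that passed the count filter there, 21 rose and 1 fell, against 38.1% higher and 35.6% lower among the 15055 genes tested (edgeR quasi-likelihood test, adjusted p under 0.05). The median log2 fold change of the 23 was 2.68, and that of all genes tested was 0.02. The filter let 9 of the 23 through on their treated libraries alone, so these had to be higher. Of the 14 with at least 10 counts in both untreated libraries, 12 rose and 1 fell, with a median of 2.51. By class, over all 23, 10 of 11 H2B genes rose, as did 5 of 5 H2A, 3 of 3 H3, 2 of 2 H4 and 1 of 2 H1 genes. The 9 let through were H4C8, H4C5, H3C6, H2AC8, H2AC13, H2BC6, H2BC7, H2BC15 and H2BC18. The class shares thus rest in part on the filter, and that of H4 wholly.

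The largest rise was that of H4C8, which encodes the core histone H4. It stood at 0.543 and 0.752 CPM in untreated SUM159 and at 16.8 and 18.1 CPM with PF-06873600. It was 26.8 times as high (log2 4.74 ± 0.2 SE). With 9 and 12 counts untreated, H4C8 passed the filter on its treated libraries alone, so it had to be higher. H2BC21, an H2B gene on chromosome 1, went from 1.75 and 1.82 CPM to 33.5 and 34.6, a 19-fold rise (log2 4.25 ± 0.13). H2BC4 went from 0.784 and 0.626 CPM to 13.9 and 13.1, an 18.9-fold rise (log2 4.24 ± 0.21), and its gene model spans H4C3 on the other strand. The libraries of the groups did not overlap for any of these genes. This held for all 23 tested in SUM159, 9 of which the filter let through on treated libraries alone, so it does not set them apart. The share over all genes was not counted.

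H2AC6, the H2A gene with the highest counts in both lines, went from 5.31 and 5.51 CPM to 61.3 and 61.9 in SUM159. It rose 11.4-fold (log2 3.51 ± 0.09 SE, adjusted p = 1.59e-13 by edgeR). H1-2, which encodes a linker histone that binds DNA between nucleosomes, went from 10.2 and 10.5 CPM to 54.1 and 57.3, a 5.39-fold rise (log2 2.43 ± 0.08). H2BC12 went from 5.73 and 3.88 CPM to 29.4 and 28.7 (log2 2.59 ± 0.13), and H2BC5 from 3.26 and 2.69 CPM to 20.2 and 20.4 (log2 2.76 ± 0.14). Treated and untreated libraries were apart in each case.

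Among the H3 genes, H3C10 went from 1.57 and 1.82 CPM to 11.7 and 11.2 (log2 2.75 ± 0.18 SE) and H3C6 from 0.543 and 0.376 CPM to 4.74 and 4.4 (log2 3.29 ± 0.3). H3C6 had 9 and 6 counts untreated and passed the filter on its treated libraries alone. The remaining rises were those of the H2A genes H2AC25, H2AC11, H2AC8 and H2AC13, the H2B genes H2BC11, H2BC15, H2BC8, H2BC18, H2BC6 and H2BC7, and of H4C5 and H3C8. Their log2 changes ran from 1.03 for H3C8 to 3.49 for H2BC15. In this list, H2AC8, H2AC13, H2BC15, H2BC18, H2BC6, H2BC7 and H4C5 passed the filter on their treated libraries alone. DESeq2 called 18 of the genes higher in place of 21, beside 4683 of all 15055 genes, and did not call H3C8 (adjusted p = 0.161). Among these, H2BC15 went from 0.302 and 0.752 CPM to 5.85 and 6.05 (log2 3.49 ± 0.30), H2BC11 from 1.87 and 1.38 CPM to 7.66 and 7.05 (log2 2.17 ± 0.21) and H2AC11 from 1.81 and 1.5 CPM to 5.38 and 5.58 (log2 1.72 ± 0.21). H2AC25 went from 4.22 and 3.01 CPM to 7.89 and 9.08 (log2 1.23 ± 0.18), the smallest rise among genes above 5 CPM. H2BC8 and H2AC8, which were not counted in untreated A549, went from 0.603 and 0.939 and from 0.302 and 0.626 CPM to 5.67 and 4.82 and 3.39 and 2.65. Treated and untreated libraries were apart for each of these 6 genes, as for all 23 tested, so this does not set them apart. None of the remaining genes that rose exceeded 9.08 CPM in a library. H2BC9 was at 1.57 and 1.38 CPM untreated and at 1.75 and 1.84 CPM treated, which did not pass (log2 0.29 ± 0.27, adjusted p = 0.345).

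A small number of lowly counted genes went the other way in SUM159. H1-4, a second linker histone gene, stood at 1.15 and 1 CPM untreated and at 0.468 and 0.284 CPM with PF-06873600 (log2 -1.53 ± 0.41 SE, adjusted p = 0.00345), and DESeq2 did not call it (adjusted p = 0.074). With no count filter, 5 further genes passed lower, H2AC20, H1-3, H3C7, H2BC10 and H2AC12, and H4C14 passed higher. These rest on few counts: H2AC20 had 8 and 8 counts untreated and 3 and 1 treated, and H2AC12 had 7 and 6 untreated and 0 and 1 treated. For H4C14, none of the 65-base words of the transcript is unique in the genome, so its counts cannot be assigned to it with certainty.

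In A549, PF-06873600 raised fewer of the genes and by less. Of 20 that passed the filter, 11 rose and 1 fell, against 28.5% higher and 27.8% lower among the 15780 genes tested. Their median log2 fold change was 0.89 and that of all genes was -0.01. The filter let 3 of the 20 through on treated libraries alone, and of the 14 with at least 10 counts in both untreated libraries 9 rose and 1 fell. By class, 6 of 9 H2B, 2 of 4 H2A, 1 of 1 H1, 1 of 3 H4 and 1 of 3 H3 genes rose. These tallies include H2BC18 and H2AC13, which the filter let through on treated libraries alone.

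H2BC4 showed the largest rise in A549, from 1.09 and 1.67 CPM to 8.42 and 8.16 (log2 2.58 ± 0.22 SE, adjusted p = 1.93e-07 by edgeR). H2BC21 went from 3.26 and 4.07 CPM to 11.9 and 12 (log2 1.70 ± 0.16), H4C8 from 4.35 and 4.07 CPM to 13.3 and 12.9 (log2 1.64 ± 0.17), and H2BC12 from 7.14 and 7 CPM to 21.7 and 20.8 (log2 1.59 ± 0.11). H1-2 went from 9.86 and 11.7 CPM to 32.7 and 32.5 (log2 1.59 ± 0.11), H2BC5 from 7.48 and 10.5 CPM to 20.3 and 19.2 (log2 1.13 ± 0.14), and H2AC6 from 23.6 and 24.3 CPM to 40 and 42 (log2 0.78 ± 0.08). Libraries of the groups were apart for these 7 genes, as for 17 of the 20 tested, which is more than were called. The share over all genes was not counted.

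H3C6 was the gene that fell, from 8.97 and 6.27 CPM to 5.13 and 4.45 (log2 -0.67 ± 0.19 SE, adjusted p = 0.00845 by edgeR), the reverse of its rise in SUM159. H2AC13 lies at the edge, with 0.748 and 0.333 CPM untreated, 1.07 and 1.17 CPM treated and an adjusted p of 0.0497, and 37.8% of its 65-base words are unique in the genome. It was not called by DESeq2 (adjusted p = 0.263), without the filter (0.0574) or with only the compared groups in the model (0.0718). H4C16, the gene on chromosome 12, was at 0.544 and 1.07 CPM untreated and 1.07 and 1.48 CPM treated, which did not pass (log2 0.68 ± 0.43, adjusted p = 0.193 by edgeR). H2BC18, H3C10 and H2BC6 also rose, at 1.52, 1.13 and 1.01 on the log2 scale, and H2BC18 was not called by DESeq2 (adjusted p = 0.0922).

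**Figure D3:**
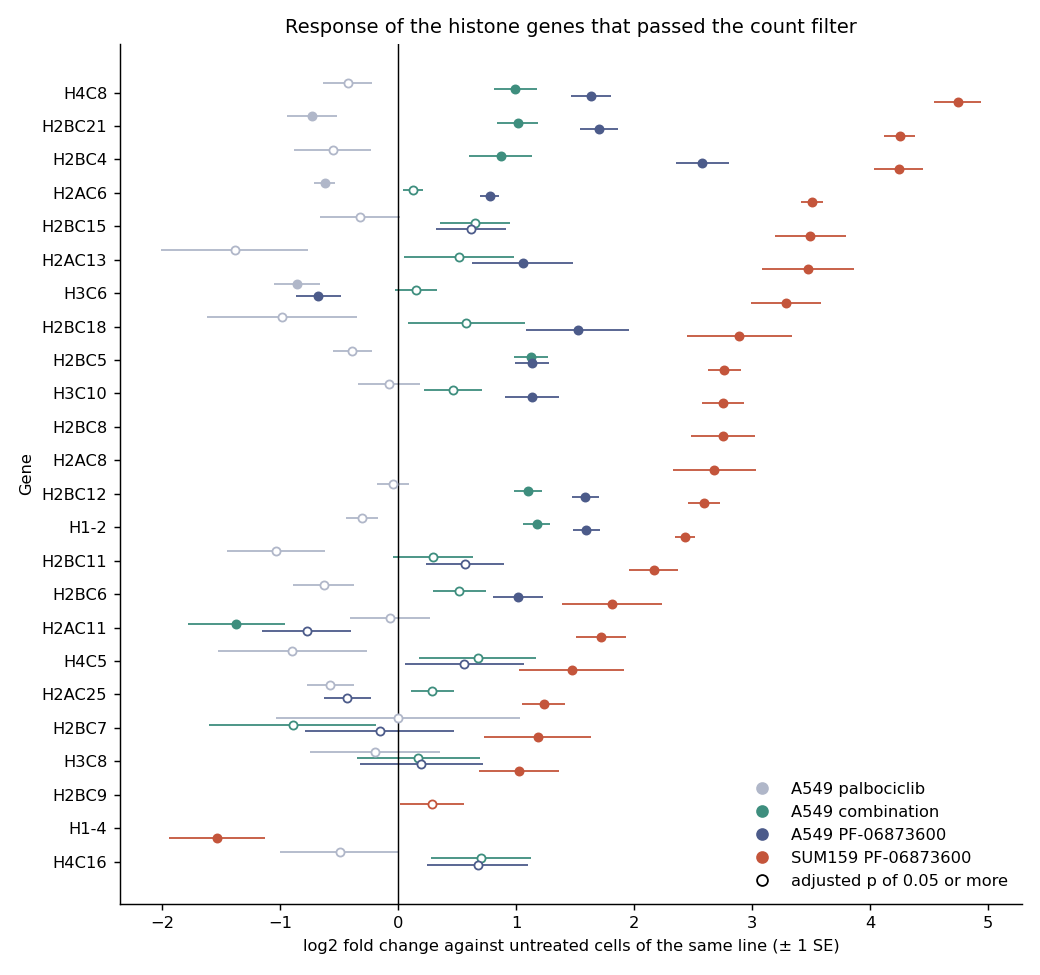
Log2 fold change against untreated cells of the same line, ± 1 SE, for the histone genes that passed the count filter in A549 with palbociclib, the combination or PF-06873600 and in SUM159 with PF-06873600, ordered by the response of SUM159 to PF-06873600. Filled points have an adjusted p under 0.05 by edgeR, and SUM159 values reach 4.74 for H4C8 while A549 values with PF-06873600 reach 2.58 for H2BC4.

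The lines differed before treatment and in their response. Between untreated cells, 11 of 24 tested genes were lower in SUM159 and 4 were higher, against 36.8% lower and 41.9% higher among 17279 genes tested in the model of both lines. Of the 14 with at least 10 counts in both A549 libraries 9 were lower and 0 higher, so the 4 higher calls all come from genes with few counts in A549. H3C6 was at 8.97 and 6.27 CPM in A549 and at 0.543 and 0.376 in SUM159, 16.3-fold lower (log2 -4.02 ± 0.29 SE). H4C8 was 6.45-fold lower in SUM159 and H2AC6 4.43-fold lower, whereas H1-2 overlapped between the lines and did not pass (log2 -0.07 ± 0.12, adjusted p = 0.636). The H2B gene H2BC8 and the H2A gene H2AC8 had 0 counts in both untreated A549 libraries, with 10 and 15 counts for H2BC8 in untreated SUM159, at least 3.78-fold above the A549 floor of 3 counts per library. H1-4 and H2BC9 were also higher in SUM159, at 2.37 ± 0.52 and 2.82 ± 0.63 on the log2 scale.

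The test of the difference in response, in which SUM159 and A549 were fitted together, called 14 of 24 genes as rising more in SUM159 and 0 as rising less, against 25.8% and 27.2% of all genes. DESeq2 also gave 14 and 0, beside 4051 and 3888 of all 17279 genes. At an unadjusted p under 0.05 edgeR gave 0 histone genes with a smaller rise, a cut at which all genes were not counted. The difference was largest for H3C6, at 3.96 ± 0.37 on the log2 scale (SE, adjusted p = 3.0e-08), where the lines moved in opposite directions. It was 3.10 ± 0.31 for H4C8, 2.73 ± 0.12 for H2AC6, 2.55 ± 0.23 for H2BC21 and 0.84 ± 0.15 for H1-2. After treatment H1-2 was at 54.1 and 57.3 CPM in SUM159 against 32.7 and 32.5 in A549, and H2BC5 at 20.2 and 20.4 against 20.3 and 19.2. H2BC5 thus ended at overlapping levels in both lines, from untreated levels that lay apart.

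Palbociclib alone lowered a few of the genes in A549 and raised none. Of 20 tested, 3 fell and 0 rose, against 7.4% lower and 8.3% higher among all genes tested. DESeq2 called 2 lower and 0 higher, beside 622 lower and 967 higher of the 13026 genes to which it gave an adjusted p. At an unadjusted p under 0.05 edgeR gave 9 lower and 0 higher, a cut at which all genes were not counted. H2AC6 went from 23.6 and 24.3 CPM to 15.1 and 15.9 (log2 -0.62 ± 0.09 SE, adjusted p = 0.000328 by edgeR), H3C6 from 8.97 and 6.27 CPM to 3.64 and 4.7 (log2 -0.85 ± 0.2), and H2BC21 from 3.26 and 4.07 CPM to 1.86 and 2.5 (log2 -0.73 ± 0.21). The libraries of these genes did not overlap between groups, but this held for 11 of the 20 tested, more than were called, so it does not set them apart. Its share over all genes was not counted. DESeq2 did not call H2BC21 (adjusted p = 0.12). With only the palbociclib and untreated libraries in the model, or without palbociclib replicate 1, 1 gene was called lower in place of 3.

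Few of the genes passed the test with indisulam alone. Of 20 tested, 3 fell and 1 was called higher, against 17.5% lower and 28.0% higher among all genes, so neither share was above that of all genes. H2AC6 fell to 13.8 and 14.8 CPM (log2 -0.75 ± 0.09 SE, adjusted p = 1.55e-05 by edgeR), H2BC4 to 0.691 and 0.529 CPM (log2 -1.17 ± 0.36) and H4C8 to 2.9 and 2.64 CPM (log2 -0.60 ± 0.22). The call of H4C8 ended under DESeq2 (adjusted p = 0.0675) and with only the compared groups (0.0536). H2BC5 was called higher, at 12 and 11.8 CPM (log2 0.40 ± 0.15), a call that ended under TMM factors, DESeq2, the replicate block and with only the compared groups. H1-2 stood at 14 and 11.2 CPM, overlapping the untreated libraries.

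The combination of palbociclib and indisulam raised 6 of 20 tested genes in A549 and lowered 1, against 35.1% higher and 30.0% lower among all genes, so the share that rose was no larger than that of all genes. The median log2 fold change was 0.55 for the 20 and 0.05 for all genes tested. H1-2 went to 24.5 and 24.3 CPM (log2 1.17 ± 0.12 SE, adjusted p = 5.91e-07 by edgeR), H2BC5 to 19.1 and 20.2 CPM (log2 1.13 ± 0.14), H2BC12 to 15.1 and 15.2 CPM (log2 1.10 ± 0.12), H2BC21 to 6.95 and 7.85 CPM (log2 1.01 ± 0.17), H4C8 to 9.57 and 7.27 CPM (log2 0.99 ± 0.18) and H2BC4 to 2.2 and 2.83 CPM (log2 0.87 ± 0.27). DESeq2 called 5 higher, beside 4443 of all 15780 genes, and did not call H2BC4 (adjusted p = 0.0827). H2AC11 fell, from 1.5 and 1.67 CPM to 0.284 and 0.901 (log2 -1.37 ± 0.41). H2AC6 returned to 25.2 and 27.0 CPM, above the untreated libraries but not past the test (log2 0.13 ± 0.09, adjusted p = 0.211).

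Set against each single drug, more of the genes were higher with both. Against palbociclib, 16 of 20 were higher and 1 lower (H2AC11), beside 33.5% and 26.9% of all genes. DESeq2 called 10 higher and 0 lower, beside 3990 and 3864 of all 15780 genes. Against indisulam, 9 of 20 were higher and 1 lower, beside 22.0% and 23.9% of all genes. In each of these comparisons 4 of the 20 had enough counts in the combination libraries only, and of the 13 with at least 10 counts in both libraries of the single drug 11 were higher against palbociclib and 7 against indisulam. The interaction, which tests whether the combined change exceeds the sum of the single changes on the log2 scale, was positive for 11 of 20 genes and negative for 0, beside 10.7% and 14.5% of all genes. DESeq2 gave 7 and 0, beside 1241 and 1495 of the 13332 genes to which it gave an adjusted p. At an unadjusted p under 0.05 edgeR gave 14 and 0, a cut at which all genes were not counted. The interaction reached 2.59 ± 0.46 for H2BC4 (SE, adjusted p = 0.000834 by edgeR), 2.02 ± 0.29 for H4C8, 1.79 ± 0.27 for H2BC21, 1.5 ± 0.13 for H2AC6 and 1.26 ± 0.18 for H1-2. H2BC4 and H4C8 stood below untreated cells with each drug alone, past the edgeR test with indisulam only, and above them with both. These comparisons share libraries and are not independent of one another. Of the 11 genes with a positive interaction, H4C5 had at least 10 counts in both libraries of the combination only. Its call thus rests in part on the filter.

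The genes that reached 1 CPM were compared with the others by the length of their annotation. In GENCODE 44, the gene model of 17 of the 66 runs more than 100 bases of genome past the stem-loop, and 13 of these 17 reached a mean of 1 CPM in a group, against 9 of the other 49. H2AC6 runs 14432 bases past it, H2BC4 37155, H4C8 7522, H2BC21 1729 and H3C10 769. In H2AC6, H2BC4 and H4C8 these distances include introns of annotated spliced transcripts, and the exons hold 1668, 2881 and 2163 bases in all. H2BC21 and H3C10 have no annotated spliced transcript. Of the 13 with longer models that reached 1 CPM, 12 were tested in SUM159 and 12 rose, and of 11 tested genes with shorter models 9 rose and 1 fell. The filter let H2BC18, H2BC6, H3C6, H4C8 and H2BC15 with longer models through on treated libraries alone. It did the same for H2BC7, H4C5, H2AC8 and H2AC13 with shorter models. H1-2 and H2BC12 are exceptions, since their models end 4 and 5 bases past the stem-loop and their levels were among the highest. This comparison is a description, since a longer model also offers more sequence in which reads can be counted.

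A polyadenylation signal AATAAA close to the stem-loop set 2 genes apart. In H1-2 and H2BC5 it begins 12 bases after the stem-loop, and in the other genes that hold one within the search window no closer than 102 bases. These 2 genes were among the 5 highest per kilobase in treated SUM159. So were H2BC12, H2AC6 and H2BC21, in which AATAAA lies 1552, 745 and 1705 bases away, and H2BC12 and H2AC6 ranked above H2BC5. Neither the letters nor their place show where the counted transcripts ended.

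**Figure D4:**
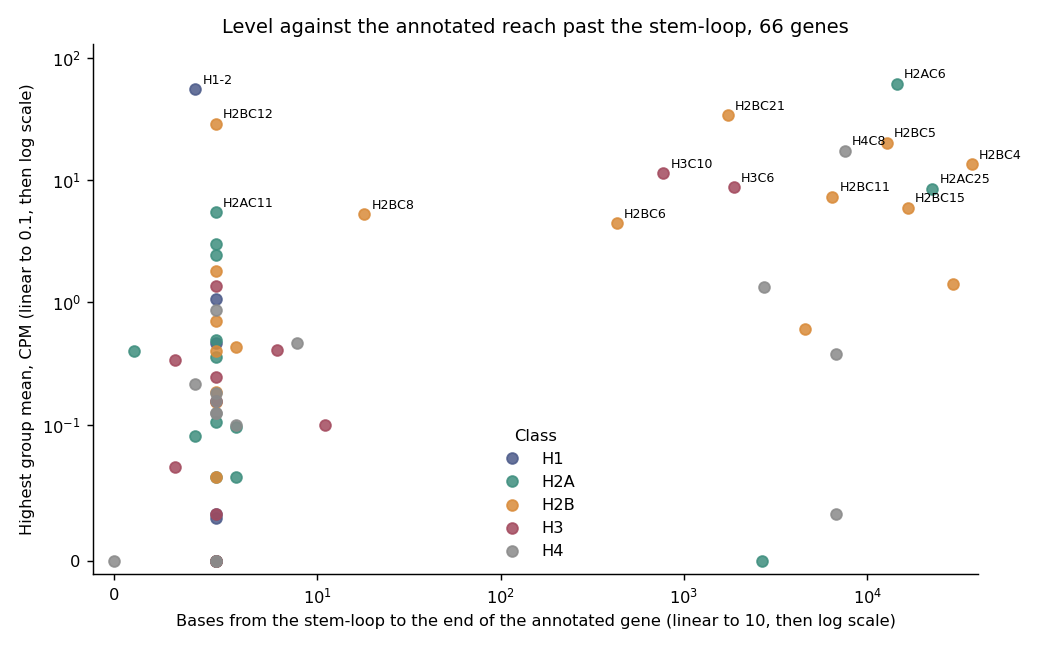
Highest group mean of each of the 66 genes in CPM against the distance from its stem-loop to the end of the annotated gene. The distance is in bases of genome, introns included, and colours give the histone class. Of the 17 genes more than 100 bases to the right, 13 lie above 1 CPM, and H1-2 and H2BC12 stand high at 4 and 5 bases.

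Reads of 65 bases can be placed in most of the genes. All 65-base words of 41 genes are unique in the genome, more than 90% are unique in 54, fewer than 50% in 10 and none in 4 (H4C14, H4C15, H3C14 and H3C15). H2BC12 has 52.9% and H2BC18 35.3%, so their counts may be too low or uncertain, while H1-2, H2AC6 and H4C8 have 100%.

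Many of the genes face each other in pairs, an H2A and an H2B gene that start 169 to 250 bases apart and run in opposite directions, so that 1 short interval holds both promoters. There are 12 such pairs among the 66 genes, a view chosen after the values were seen. In SUM159 with PF-06873600, both genes of 3 pairs rose, only 1 gene of 6 pairs was called higher, and neither gene of 3 pairs was. In those 6 pairs the partner had too few counts for the test. Among the genes called here, H2AC8, H2BC7, H2AC13 and H2BC15 passed the filter on their treated libraries alone, so they had to be higher. The intervals of a pair that split and of a pair that rose together are shown, both on the plus strand of hg38, with each TATAAA box, each CCAAT box and each ATTTGCAT on either strand in capitals. ATTTGCAT is the octamer that the factor OCT1 (POU2F1) is known to read in H2B promoters.

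H2BC21 (minus strand) and H2AC20 (plus strand), chr1:149886683-149886917: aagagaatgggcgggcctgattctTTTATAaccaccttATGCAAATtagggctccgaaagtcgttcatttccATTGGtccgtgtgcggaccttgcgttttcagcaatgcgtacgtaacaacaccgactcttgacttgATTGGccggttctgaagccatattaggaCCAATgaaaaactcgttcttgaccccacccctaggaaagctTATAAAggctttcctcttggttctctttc

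H2BC8 (minus strand) and H2AC8 (plus strand), chr6:26216689-26216920: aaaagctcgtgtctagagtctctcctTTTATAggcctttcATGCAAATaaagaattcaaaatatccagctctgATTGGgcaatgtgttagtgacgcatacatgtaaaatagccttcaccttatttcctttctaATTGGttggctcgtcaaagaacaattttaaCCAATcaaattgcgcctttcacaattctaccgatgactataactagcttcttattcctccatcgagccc

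Each interval holds 3 CCAAT and 1 ATTTGCAT. They differ in TATAAA, with 2 between H2BC21 and H2AC20 and 1 between H2BC8 and H2AC8. H2BC21 rose to 34 ± 0.755 CPM (SD, n = 2) while H2AC20, on the other side of the same interval, was at 0.492 ± 0.0131 CPM untreated and 0.111 ± 0.0906 treated. H2BC12 rose to 29.1 ± 0.464 CPM while its partner H2AC12 was at 0.399 ± 0.0328 and 0.0236 ± 0.0334. H2AC25 and H2BC26 both stood higher after treatment, at 3.61 ± 0.859 and 0.308 ± 0.0951 CPM untreated and 8.49 ± 0.839 and 0.611 ± 0.128 treated. H2BC8 and H2AC8 rose together, from 0.771 ± 0.238 and 0.464 ± 0.23 CPM to 5.25 ± 0.599 and 3.02 ± 0.525, and so did H2BC4 with H2AC6 and H2BC11 with H2AC11. Of these, H2AC8 passed the filter on its treated libraries alone. Genes on either side of 1 interval thus differed in their counts.

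**Figure D5:**
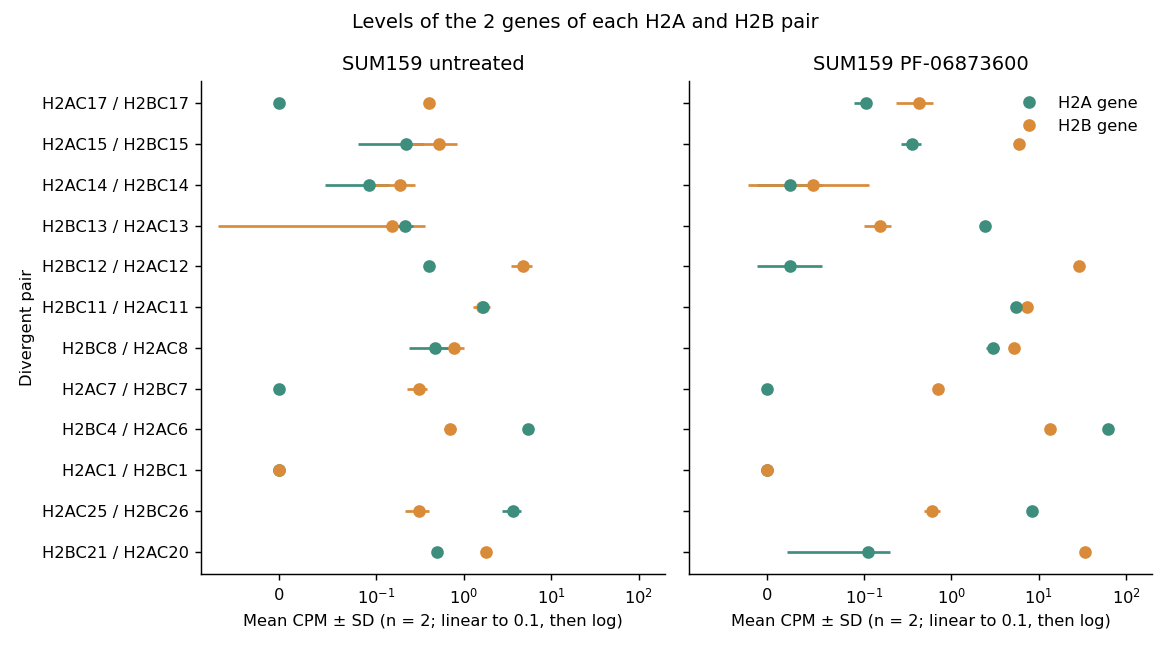
Mean CPM ± SD (n = 2 libraries) of both genes of each of the 12 divergent H2A and H2B pairs in SUM159, untreated on the left and with PF-06873600 on the right. In the treated cells H2BC21 and H2AC20 lie at 34 and 0.111 CPM, whereas H2BC8 and H2AC8 lie at 5.25 and 3.02.

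The promoters of the classes differed in their letters. Promoters of 61 of the 66 genes were found in the RefSeq table for GRCh38.p14, from 250 bases before to 50 after the start. CCAAT, on either strand, was in 83.6% of them against 34.6% of the 35116 promoters in the table, TATAAA in 65.6% against 11.5%, and ATTTGCAT in 42.6% against 1.77%. ATTTGCAT was in 14 of 18 H2B, 11 of 14 H2A, 1 of 11 H3, 0 of 5 H1 and 0 of 13 H4 promoters. The 1 H3 promoter is that listed for H3C4, and its interval is the same as that of H2AC7. The GENCODE model of H3C4 lies outside this interval, at chr6:26196784-26197286. The same bases are thus counted under each of these genes, and no other H3 promoter held the octamer. H1-2 and H4C8 rose without it in this window.

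The counts of each gene list below are to be read against the shares of all genes called, which were 35.6% lower and 38.1% higher with PF-06873600 in SUM159, 27.8% and 28.5% with it in A549, and 30.0% and 35.1% with the combination. The replication-independent histone genes, most of whose mRNAs carry ordinary poly(A) tails and are not confined to S phase, mostly fell. Of the 11 replication-independent variants tested, 8 fell and 1 rose with PF-06873600 in SUM159 (median log2 -0.74), 8 fell and 2 rose with it in A549 (median -0.39), and 9 fell and 2 rose with the combination (median -0.71). H3-3B, which encodes the replacement histone H3.3, fell from 532 ± 24.7 to 244 ± 1.8 CPM in SUM159, and H2AZ1 from 435 ± 11.5 to 275 ± 11.2. H2AJ, an H2A variant, rose in every treated group, most in SUM159 with PF-06873600, from 19 ± 2.77 to 50 ± 4.06 CPM (log2 1.40 ± 0.1).

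The factors that make and cut the S phase transcripts moved down in SUM159. Of 21 transcription and 3′ end processing genes tested, 17 fell and 1 rose with PF-06873600 there (median log2 -0.52), 4 fell and 5 rose in A549 (median 0.17), fewer in either direction than among all genes, and 10 fell and 1 rose with the combination (median -0.17). SLBP was at 101 ± 3.78 CPM in untreated SUM159 and 72.3 ± 2.38 treated (log2 -0.48 ± 0.06 SE), and in A549 at 36.0 ± 2.12 untreated, 46.9 ± 1.26 with PF-06873600 and 28.7 ± 3.73 with the combination. NPAT, the cyclin E and CDK2 substrate that switches histone genes on, did not pass in SUM159 (log2 -0.10 ± 0.08, adjusted p = 0.229) or A549 (0.17 ± 0.11, adjusted p = 0.224) with PF-06873600, and fell with the combination (log2 -0.42 ± 0.12). HINFP, which acts at H4 promoters, rose with PF-06873600 in SUM159 (log2 0.39), and CASP8AP2, a partner of NPAT, fell there (log2 -0.36). POU2F1, the octamer factor above, fell in all 3 comparisons, by 1.20 on the log2 scale in SUM159.

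Of 14 cleavage and polyadenylation genes, which make the ordinary tails, 14 fell and 0 rose with PF-06873600 in SUM159 (median log2 -0.62), 7 fell and 2 rose in A549 (median -0.19), and 5 fell and 1 rose with the combination (median -0.17), where the share that fell was near that of all genes. NUDT21, which steers the choice of poly(A) site, fell by 0.86, 0.40 and 0.56 on the log2 scale. Of 5 histone mRNA decay genes, 3 fell and 1 rose in SUM159, 1 fell and 2 rose in A549 with PF-06873600, and 0 fell and 3 rose with the combination. ERI1, the nuclease that trims the stem-loop end, was at 48.6 ± 0.265 CPM untreated and 33.0 ± 1.25 treated in SUM159, and in A549 at 20.5 ± 0.29 untreated, 32.8 ± 0.926 with PF-06873600 and 31.7 ± 0.545 with the combination. The part of these factors in the histone counts was not tested.

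Genes of S phase itself moved in opposite directions in the lines with PF-06873600. With PF-06873600, 23 of 25 S phase genes fell and 1 rose in SUM159 (median log2 -1.01), where the summed histone level was 6.22 times as high, while 21 rose and 1 fell in A549 (median 0.82). With the combination 24 fell and 1 rose (median -1.42), and with palbociclib alone 12 rose and 5 fell (median 0.22). PCNA, the clamp of the replication fork, was at 239 ± 12.2 CPM untreated and 110 ± 1.56 with PF-06873600 in SUM159, and at 118 ± 1.72, 77.0 ± 3.18 with the combination and 213 ± 3.92 with PF-06873600 in A549. CCNE2, a cyclin partner of CDK2, rose in A549 with PF-06873600 from 2.52 ± 0.203 to 17.5 ± 2.16 CPM, and CCNA2 fell in SUM159 from 166 ± 4.25 to 44.4 ± 1.01 CPM. E2F1, which drives S phase genes, rose in A549 with PF-06873600 (log2 0.82) and with palbociclib (0.74), and fell with the combination (-0.83) and in SUM159 (-0.40). Of 22 histone chaperones, which carry new histones to DNA, 18 fell and 0 rose in SUM159, 11 rose and 3 fell in A549 with PF-06873600, and 14 fell and 4 rose with the combination. The part of the cell cycle state in the counts was not tested.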

How the data were processed

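The deposited files hold raw read counts per Ensembl gene, 1 file per library, made by the authors from polyadenylated RNA (stranded kit, single-end reads of 65 bases aligned to hg38). The submitters' processing notes name HISAT2 2.2.1 and HTSeq, and the annotation release and strand setting are not given in the sources used here. The 9 summary lines were left out of totals and tests. Among them, reads of low mapping quality came to 10.3 to 13.9% of the total on genes, so reads shared by near-identical histone genes can be missing from the counts.

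CPM was computed from the total on genes. Counts scaled by that total were tested with edgeR 4.0.16 (quasi-likelihood, filterByExpr, Benjamini-Hochberg adjustment over all genes tested, threshold 0.05). The 10 A549 libraries, the 4 SUM159 libraries and all 14 were each fitted in 1 model. Each SE was derived from the log2 fold change and its F statistic, as their ratio with F under a square root. DESeq2 1.42.0 was an alternative, beside TMM factors, other count filters, a replicate block, only the compared groups and leaving out each library. The code was tested on simulated data. Sequence features came from the hg38 genome and GENCODE 44, and promoters from RefSeq.

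Members and lists were chosen with earlier results of these data known. Genes whose mean reached 1 CPM in a group are given with values, the others by ranges. From each other list the 4 largest rises and 4 largest falls among genes of at least 5 CPM, and a fixed set of regulators and variants, could be named.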

Additional observations from a re-analysis of the deposited data

Results flagged for a closer look

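The response to PF-06873600 differed between the cell lines by the interaction term of edgeR, with adjusted p under 0.05, for 14 histone genes. The log2 response of SUM159 minus that of A549 was 3.96 for H3C6, 3.10 for H4C8, 2.87 for H2BC15, 2.73 for H2AC6, 2.55 for H2BC21, 2.49 for H2AC11, 2.41 for H2AC13, 1.66 for H2AC25, 1.66 for H2BC4, 1.63 for H2BC5, 1.62 for H3C10, 1.60 for H2BC11, 1.00 for H2BC12 and 0.84 for H1-2. H3C6 moved in opposite directions, lower in A549 and higher in SUM159.

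The effect of palbociclib differed with and without indisulam, by the same kind of term, for 10 histone genes whose mean reached 1 CPM in a group. The log2 change with both drugs minus the sum of the single changes was 2.59 for H2BC4, 2.02 for H4C8, 1.79 for H2BC21, 1.64 for H2BC15, 1.5 for H2AC6, 1.26 for H1-2, 1.14 for H2BC6, 1.11 for H2BC5, 0.84 for H2BC12 and 0.81 for H3C6. Groups of 2 libraries were too small for a search for libraries that stand apart.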

How the results depend on the processing

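With a mean of at least 50 counts required, fewer histone genes were tested, and those called higher were 6 in place of 11 (PF-06873600 in A549), 13 in place of 21 (SUM159), 8 in place of 16 (combination against palbociclib), 7 in place of 11 (interaction of the drugs) and 0 in place of 4 (untreated SUM159 against A549, with 7 lower in place of 11). The 1 gene called lower was then 0 for the combination against untreated, palbociclib and indisulam and for SUM159. DESeq2 gave 10 higher and 0 lower against palbociclib, 0 lower against indisulam, 7 for the interaction and 0 lower in SUM159. With no filter, 2 were lower with the combination and 6 in SUM159. With only the compared groups, 1 was lower with palbociclib. The 1 gene higher with indisulam became 0 with TMM factors, DESeq2, the replicate block and only the compared groups. The summed fold over untreated moved under TMM scaling to 0.893 (indisulam), 1.49 (combination) and 6.54 (SUM159). Without H2AC6, the gene with the highest CPM, it was 1.08 for indisulam, which is reversed, 1.72 for the combination, 2.19 for PF-06873600 in A549 and 5.56 in SUM159. The cause was not tested.

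Leaving out 1 library gave 1 to 3 lower with palbociclib (1 without palbociclib replicate 1), 0 to 1 higher and 1 to 2 lower with indisulam (1 without untreated or indisulam replicate 2), 0 to 1 lower against palbociclib and against indisulam, 7 to 10 higher and 0 to 1 lower for the interaction (7 without indisulam replicate 1), 0 to 1 lower with PF-06873600 in A549, 0 to 2 lower in SUM159 and 7 to 10 lower between untreated lines (7 without SUM159 untreated replicate 2).

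Same-numbered libraries shared only a number, with correlations from -0.177 to 0.156. The replicate block gave 21 higher in SUM159 and 10 in A549 with PF-06873600, and crossed numbers, chosen after seeing the data, gave 3 lower with palbociclib and 10 lower between lines. Over single genes, 1792 of 1899 alternative values kept their call and 0 reversed. Precision is limited by 2 libraries a group and by genes with few counts.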
